A study of Mus musculus with 9 samples.

Results

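MH-S cells that received suramin together with lipopolysaccharide were compared with MH-S cells that received medium only, to describe which transcripts were still raised or lowered against medium when both agents were present. The members are the 6 libraries of these 2 groups, of 9 libraries in the series. The SUR group (3 libraries) received 200 μM suramin and 1 μg/ml lipopolysaccharide (LPS) for 4 h according to the labels' treatment protocol, although the treatment label of each SUR library names suramin alone. The CON group (3 libraries) received medium, with no time given. The LPS group (3 libraries), whose values are set beside the others, received 1 μg/ml LPS for 4 h. All groups share the cell line, its serum-supplemented culture medium and the extraction of total RNA. No group received suramin without LPS, so a change in SUR against CON cannot be assigned to one of the agents. The study's design text relates suramin to pyroptosis, an inflammatory form of cell death, in LPS-stimulated alveolar macrophages.

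MH-S is an established mouse cell line that the labels call alveolar macrophage. Its general macrophage transcripts were abundant: Adgre1 (F4/80) held 396 to 543 CPM (counts per 1e6 counts) over the 9 libraries, Csf1r 920 to 1100 and Lyz2 1670 to 3810. Of the defining surface markers of resident alveolar macrophages, Siglecf had at most 3 counts and Marco at most 1 count in any library, and Chil3 also had at most 1. Other genes that alveolar macrophages express were abundant, such as Lpl at 1080 to 1780 CPM and Fabp5 at 258 to 670 CPM. Markers of other cell types were low: the 4 measured epithelial markers summed to at most 0.625 CPM and the 11 measured lymphocyte and neutrophil markers to at most 1.51 CPM. The sum over the 10 measured fibroblast and endothelial markers, 93.8 to 240.0 CPM in CON and 95.7 to 248.0 CPM in SUR, came nearly all from Vwf, with Pecam1 at no more than 2 counts. Library totals were 15729398 to 16675243 counts. Whether the numbered libraries were grown as separate cultures is not stated, and the p-values rest on the spread among these libraries, which may be technical.

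LPS is a component of the outer membrane of Gram-negative bacteria and is sensed by TLR4 with the co-receptor CD14. One branch of the receptor, through MyD88, activates NF-kappaB and the MAP kinases and induces inflammatory cytokines within hours. Another branch, through TRIF, activates IRF3 and induces interferon-beta, which then acts on the cell to raise interferon-stimulated genes. The early response carries its own brakes: inhibitors of NF-kappaB, MAP kinase phosphatases and proteins that destroy cytokine mRNA are themselves induced. Suramin is a large polysulfonated naphthylurea that was developed against trypanosomes and is widely used as an antagonist of P2 purinergic receptors.

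The genes that stood highest against medium with both agents present were largely such early-response genes, and 5 of their promoters are printed because they hold the letters of motifs that NF-kappaB or CREB-family factors are known to bind. The RefSeq window of each gene, 250 bases before to 50 after its annotated start in GRCm38.p6, was searched on both strands for GGG and TTTCC with any 2 bases between them (NF-kappaB), and for TGANTCA (AP-1), TGACGTCA (CRE), CACGTG (E-box) and GCGTGGGCG (EGR). Each stretch is 140 bases long, lies before the start, and is written 5′ to 3′ on the gene's strand, with the named motif in capitals. The first 3 hold the NF-kappaB letters, in either orientation, and the last 2 the CRE letters:
Cxcl2 (chr5:90903759-90903898, plus strand): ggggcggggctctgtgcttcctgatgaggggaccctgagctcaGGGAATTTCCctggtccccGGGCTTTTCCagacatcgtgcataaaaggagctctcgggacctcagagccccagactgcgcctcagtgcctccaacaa
Nfkbia (chr12:55492648-55492787, minus strand): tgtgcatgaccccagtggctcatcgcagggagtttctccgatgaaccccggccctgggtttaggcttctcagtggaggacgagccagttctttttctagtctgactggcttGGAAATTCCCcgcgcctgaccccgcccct
Tnfaip3 (chr10:19015411-19015550, minus strand): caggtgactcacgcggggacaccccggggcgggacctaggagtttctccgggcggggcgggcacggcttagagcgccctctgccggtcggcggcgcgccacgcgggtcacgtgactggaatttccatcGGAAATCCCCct
Dusp1 (chr17:26508496-26508635, minus strand): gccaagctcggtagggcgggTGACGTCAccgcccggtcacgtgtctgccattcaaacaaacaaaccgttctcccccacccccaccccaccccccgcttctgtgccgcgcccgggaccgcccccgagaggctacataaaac
Btg2 (chr1:134079202-134079341, minus strand): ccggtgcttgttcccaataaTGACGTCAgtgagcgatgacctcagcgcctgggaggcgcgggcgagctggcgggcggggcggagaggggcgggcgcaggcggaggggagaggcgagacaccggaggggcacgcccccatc

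The NF-kappaB letters were in 3 of the 13 windows available for the 15 largest rises described next and in 0 of the 14 available for the 15 largest falls, against 1.63% of all 27025 RefSeq mouse windows and 1.73% of the 9140 windows of tested genes. The CRE letters were in 2 of the 13 and 0 of the 14, against 1.85% of all windows and 3.4% of those of tested genes. The E-box letters were in 5 of the 13 (Dusp1, Dusp2, Egr2, Ptgs2 and Tnfaip3) and 2 of the 14 (Bhlhe41 and Bnip3), against 7.24% of all windows and 10.6% of those of tested genes. The AP-1 letters were in 1 of the 13, that of Tnfaip3, and 0 of the 14, against 7.92% of all windows and 4.7% of those of tested genes. The EGR letters were in none of either set, against 0.622% and 1.32%. In the stretches printed, the E-box letters of Dusp1 and Tnfaip3 and the AP-1 letters of Tnfaip3 lie apart from the capitals. A match describes letters only.

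Across all genes, the difference that remained was wide and lopsided. Of 11281 genes tested, 831 were higher in SUR than in CON (7.37%) and 471 were lower (4.18%) at an adjusted p below 0.05 (edgeR quasi-likelihood, with the replicate number as a block). The rises were the larger changes: 112 genes rose at least 2-fold (0.993%) and 11 fell at least 2-fold (0.0975%). The median log2 fold change was 0.35 among the higher genes (quartiles 0.24 and 0.62) and -0.21 among the lower genes (quartiles -0.27 and -0.17), against -0.009 over all tested genes. Transcription factor genes, as annotated in the deposited table, made up 139 of the 831 higher genes (16.7%) and 24 of the 471 lower genes (5.1%), beside 8.12% of all tested genes. The genes that rose at least 2-fold were short: their median span in RefSeq was 6.11 kb, beside 22.8 kb for all tested genes.

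These counts depended on the pairing of libraries by number and on single libraries. Without the block, 44 genes were higher and 4 lower, all of them among the calls made with it. Leaving out CON 1 gave 915 higher (8.04%) and 475 lower (4.17%), of which 703 and 313 were among the calls made with all libraries. Leaving out CON 3 gave 460 and 196, SUR 1 577 and 173, SUR 2 346 and 117, SUR 3 290 and 86, and LPS 3 668 and 294. CON 1 was the highest CON library for 14 of the 15 largest rises, but CON 2 and CON 3 also differed. Nfkbiz, for example, was at 257, 58.9 and 11.4 CPM in CON 1 to 3, and Cxcl2 at 71.7, 15.2 and 0.0595 CPM. All 15 of those rises and all 15 of the largest falls were also called without CON 1, and 11 of the rises were then more than 1.5 times larger in fold. For this reason values of the CON libraries are given below, and the log2 fold change without CON 1 stands beside the main one for each named gene whose fold it moved by more than 1.5 times. The larger folds without CON 1 rest on the lower CON libraries and are not a cleaner estimate. Folds without CON 3 are not given. Why the CON libraries differed was not tested.

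**Figure D1:**
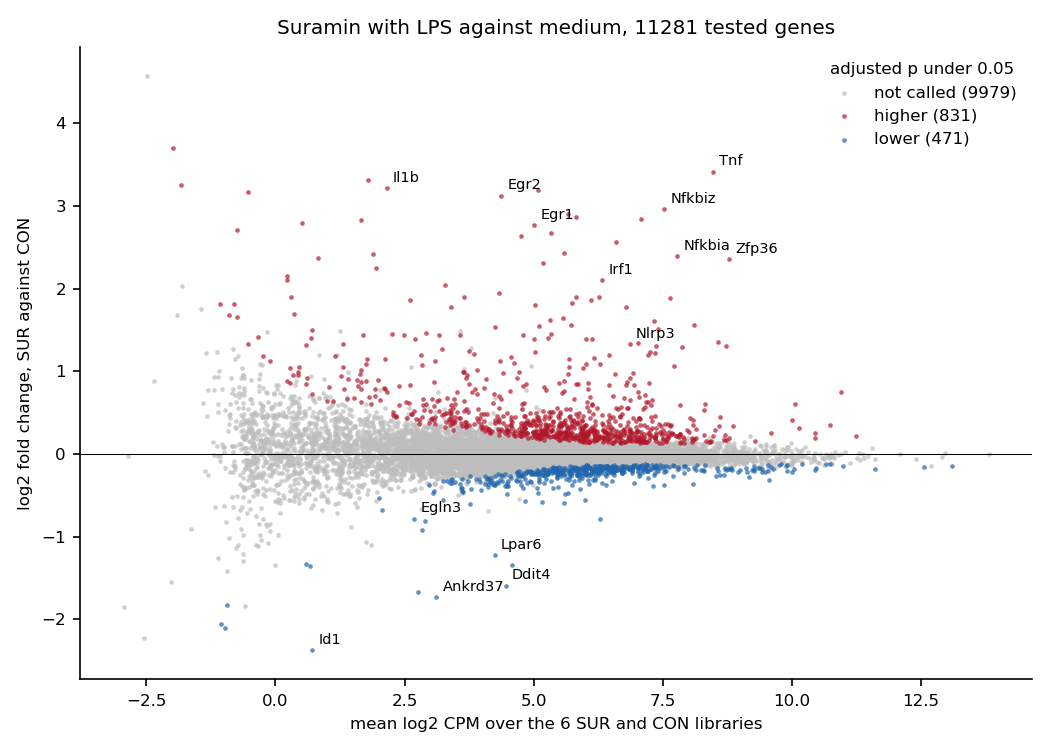
Log2 fold change of SUR against CON (vertical axis) plotted against the mean log2 CPM of the 6 libraries (horizontal axis), 1 point per tested gene. The 831 genes called higher are red and reach further from 0 than the 471 called lower, which are blue; grey points were not called.

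The 15 abundant genes with the largest rises were Tnf, Cxcl2, Egr2, Nfkbiz, Btg2, Socs3, Tnfaip3, Egr1, Dusp1, Ptgs2, Pim1, Pde4b, Nfkbia, Zfp36 and Dusp2, in order of size. In each of them the lowest SUR library lay above the highest CON library, while 942 genes of all those tested (8.35%) had such separation upward. Choosing the largest called rises favours this. The groups did not overlap in 543 of the 831 genes called higher, nor in 106 of the 112 that rose at least 2-fold. By the authors' FPKM, which allows genes to be compared per length, Tnf was the most abundant of them in SUR at 1020 ± 167 (SD, n = 3), followed by Zfp36 at 710 ± 68.0, Nfkbia at 439 ± 60.5 and Cxcl2 at 257 ± 48.3. The same 4 genes held 129 ± 153, 150 ± 94.4, 95.7 ± 85.8 and 36.9 ± 48.4 FPKM in CON, where the SD was about as large as the mean for Tnf, Nfkbia and Cxcl2.

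Among cytokines, 11 of 21 tested genes were higher in SUR (52.4%, against 7.37% of all genes) and 0 were lower. The median log2 fold change was 0.89, where the median in LPS against the same CON libraries was 4.02. Tnf (chr17:35199367-35202007, GRCm38.p6), the early inflammatory cytokine of macrophages, was at 404, 92.1 and 22.1 CPM in CON 1 to 3 and at 1326, 1159 and 1597 CPM in SUR. The groups did not overlap, and the 3 CON libraries themselves spread widely. The log2 fold change was 3.42 ± 0.69 (SE), a 10.7-fold rise (adjusted p = 0.011), and 4.68 without CON 1. In LPS, Tnf was at 1932, 2002 and 2352 CPM, and the log2 difference of SUR from LPS was -0.64 ± 0.59 (adjusted p = 0.411). The SUR libraries all lay below the LPS libraries, although the test did not call the difference.

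The interleukin-1 cytokines rose from low levels and stayed far below LPS. Il1b, the cytokine that inflammasomes mature, was at 4.55, 1.40 and 0.0595 CPM in CON and at 12.2, 15.9 and 30.2 CPM in SUR, a log2 fold change of 3.21 ± 0.57 (adjusted p = 0.00562; 5.04 without CON 1). It was at 98.3, 222 and 262 CPM in LPS, and SUR was lower than LPS by a log2 difference of -3.30 (adjusted p = 8.7e-06). Il1a, its close relative, changed in the same way, with a log2 fold change of 2.79 ± 0.61 (adjusted p = 0.0159; 4.87 without CON 1), between 0.179 and 1.40 CPM in CON and between 1.96 and 6.20 CPM in SUR. Lif, an IL-6 family cytokine, and Il23a, a subunit of IL-23, had log2 fold changes of 2.38 ± 0.47 and 1.90 ± 0.55 (adjusted p = 0.00937 and 0.0495; 3.93 and 3.45 without CON 1). Csf3 (G-CSF) was also called higher, from 1 count or none in each CON library to 0.237 to 0.526 CPM in SUR, which is too low for a fold change to be read.

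Il6 did not pass the test. Its levels were 17.2, 3.77 and 0.179 CPM in CON, 11.4, 11.7 and 19.6 CPM in SUR, and 182 to 250 CPM in LPS. The SUR values lay within the range of the CON values or just above it, and the log2 fold change was 1.05 ± 0.58 (adjusted p = 0.272). Without CON 1 it was 2.78 and passed (adjusted p = 0.00209), so for Il6 the call rests on CON 1. Abundant Csf1, the growth factor of macrophages, rose slightly, by 0.60 ± 0.10 (adjusted p = 0.00514). The cytokine count also moved with single libraries: it was 6 without CON 2, 7 without CON 3, 4 without SUR 2, 2 without SUR 3 and 0 without the block, and 12 without CON 1.

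Chemokines were split. Of 15 tested, 7 were higher in SUR (46.7%, against 7.37% of all genes) and 0 lower. The median log2 fold change was 1.02 beside 4.77 for LPS. The neutrophil attractant Cxcl2 (chr5:90903899-90905938), whose promoter stretch above holds the NF-kappaB letters at 2 places, was at 71.7, 15.2 and 0.0595 CPM in CON and at 242, 175 and 187 CPM in SUR, a log2 fold change of 3.20 ± 0.69 (adjusted p = 0.0148; 4.66 without CON 1). The related Cxcl3 rose by 2.83 ± 0.47 (adjusted p = 0.00441; 5.31 without CON 1), with 4.79, 0.609 and 0 CPM in CON and all SUR libraries above these, at up to 14.2 CPM. The monocyte attractant Ccl2 rose by 1.20 ± 0.22 (adjusted p = 0.00736), from 36.9 to 73.0 CPM in CON to 106 to 158 CPM in SUR, against 821 to 1298 CPM in LPS. Ccl3, whose annotated span overlaps that of Ccl4 and whose count is therefore uncertain, rose by 1.23 ± 0.32 (adjusted p = 0.0334, and 1.87 without CON 1).

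Of the 8 chemokines not called, Cxcl10 and Ccl5 are known to depend on interferon signalling. Others were not called either, such as Ccl4, at 4.88 to 67.5 CPM in CON and 39.8 to 50.2 CPM in SUR (edgeR quasi-likelihood, adjusted p = 0.375). Cxcl10, which attracts T cells, was at 124, 26.4 and 0.536 CPM in CON, 72.8, 57.4 and 93.5 CPM in SUR and 1288 to 1410 CPM in LPS. The SUR libraries thus lay inside the CON range, with a log2 fold change of 1.06 ± 0.82 (adjusted p = 0.436). Ccl5 (RANTES) was at 5.24 to 19.1 CPM in CON and at 8.52 to 12.1 CPM in SUR, a log2 fold change of -0.06 ± 0.33 (adjusted p = 0.928). Without CON 1 Cxcl10, Ccl5 and Ccl4 passed, at 2.51, 0.68 and 1.91 (adjusted p = 0.00829, 0.023 and 0.000506), and the count of higher chemokines became 11. It was 4 without CON 2, 4 without SUR 2, 2 without SUR 3 and 0 without the block.

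Among the lists with at least 10 tested genes, NF-kappaB target and feedback genes had the largest share of rises. Of 27, 20 were higher in SUR (74.1%, against 7.37% of all genes) and 0 lower, with a median log2 fold change of 0.99 beside 2.26 for LPS. All 20 were called without CON 1, and 18 had CON 1 as the highest CON library. Nfkbia, which encodes the inhibitor IkappaB-alpha, was at 240, 94.6 and 29.2 CPM in CON and at 502, 518 and 645 CPM in SUR, a log2 fold change of 2.39 ± 0.51 (adjusted p = 0.014; 3.29 without CON 1). Its LPS levels were 627, 694 and 812 CPM, and the log2 difference of SUR from LPS was -0.36 (adjusted p = 0.553). Tnfaip3, which encodes the ubiquitin-editing inhibitor A20, was at 194, 44.6 and 9.05 CPM in CON and at 449, 363 and 486 CPM in SUR, a log2 fold change of 2.84 ± 0.64 (adjusted p = 0.0192; 4.03 without CON 1).

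Nfkbiz, a nuclear IkappaB protein that helps to activate secondary targets, rose by 2.96 ± 0.68 (adjusted p = 0.0203; 4.22 without CON 1), from 257, 58.9 and 11.4 CPM in CON to 564 to 657 CPM in SUR. It remained below its LPS level of 1926 to 2012 CPM, with a log2 difference of -1.71 (adjusted p = 0.0401). Ptgs2 (cyclooxygenase-2), the inducible enzyme of prostaglandin synthesis, rose by 2.64 ± 0.46 (adjusted p = 0.00562; 4.19 without CON 1), from 41.1, 6.51 and 1.97 CPM in CON to 63.2 to 109 CPM in SUR. Its LPS level was 320 to 523 CPM, and SUR was lower than LPS by a log2 difference of -2.21 (adjusted p = 0.000865). The subunit genes Rel, Relb and Nfkb2 rose by less, by 1.04 ± 0.16, 0.85 ± 0.17 and 0.70 ± 0.10, while Nfkb1 was not called. The list's count was 12 without SUR 2, 12 without SUR 3 and 2 without the block.

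Zfp36 encodes tristetraprolin, which binds AU-rich elements and directs cytokine mRNAs to decay. It was at 370, 169 and 112 CPM in CON, 1077, 922 and 1079 CPM in SUR and 915, 885 and 882 CPM in LPS. The SUR libraries were thus the highest of the 9, with a log2 fold change against CON of 2.36 ± 0.27 (adjusted p = 0.000539) and a log2 difference from LPS of 0.20 ± 0.25 that was not called (adjusted p = 0.548). Zc3h12a (regnase-1), an endonuclease for inflammatory mRNAs, rose by 1.90 ± 0.28 (adjusted p = 0.00212; 2.5 without CON 1), from 16.9 to 46.5 CPM to 88.9 to 131 CPM. Socs3, the inhibitor of cytokine receptor signalling, was at 34.4, 18.6 and 12.5 CPM in CON and at 122, 150 and 225 CPM in SUR, a log2 fold change of 2.87 ± 0.31 (adjusted p = 0.00053; 3.56 without CON 1). Pim1, a survival kinase downstream of cytokine receptors, and Pde4b, the phosphodiesterase that lowers cyclic AMP after TLR4 activation, rose by 2.56 ± 0.41 and 2.43 ± 0.40 (adjusted p = 0.00362 and 0.00384; 3.35 and 3.44 without CON 1).

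Immediate-early genes, which respond within minutes to growth factors and stress, and feedback regulators of MAP kinases rose as a large share of their list. Of 38 tested, 25 were higher in SUR (65.8%, against 7.37% of all genes) and 3 lower (7.89%, against 4.18%). The median log2 fold change was 0.95 beside 1.74 for LPS. Leaving out any 1 of the 9 libraries gave 20 to 28 higher, and 12 of the 25 were called without the block. Egr2, a zinc finger transcription factor, was at 10.9, 5.36 and 5.24 CPM in CON and at 55.5, 51.5 and 84.3 CPM in SUR, a log2 fold change of 3.13 ± 0.23 (adjusted p = 6.41e-05). Its LPS level, 58.7 to 95.8 CPM, overlapped that of SUR. Dusp1 and Dusp2, phosphatases that switch off MAP kinases, rose by 2.68 ± 0.33 and 2.31 ± 0.26 (adjusted p = 0.00085 and 0.000542), and Dusp1 by 3.45 without CON 1. Dusp1 went from 32.1, 15.04 and 6.37 CPM in CON to 105 to 124 CPM in SUR, below its 259 to 313 CPM in LPS. Btg2, an antiproliferative gene, whose promoter stretch above holds the CRE letters as that of Dusp1 does, rose by 2.91 ± 0.33 (adjusted p = 0.000539; 3.78 without CON 1), from 43.0, 12.2 and 9.35 CPM to 116 to 188 CPM.

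Some of these genes stood above both other groups. Egr1, the founding member of its zinc finger family, was at 12.7, 10.2 and 14.4 CPM in CON, 55.7, 33.7 and 41.3 CPM in LPS and 93.8, 62.5 and 99.0 CPM in SUR, with no overlap between any of the 3 groups. The log2 fold change of SUR against CON was 2.77 ± 0.10 (adjusted p = 5.19e-07), also called without the block (adjusted p = 0.00493), and SUR exceeded LPS by 0.96 ± 0.09 (adjusted p = 9.49e-06). Fos, the AP-1 subunit, which was singled out after its values were seen, was at 19.7 to 25.3 CPM in CON, 25.5 to 30.9 CPM in LPS and 65.1 to 79.8 CPM in SUR. Its log2 fold change against CON was 1.62 ± 0.11 (adjusted p = 4.33e-05), and SUR exceeded LPS by 1.31 (adjusted p = 4.16e-06). CON 1 lay close to the other CON libraries for both genes, and their log2 fold changes without it were 2.65 and 1.73. Map3k8, which encodes the kinase TPL2 that links TLR4 to ERK, was at 3.99 to 8.41 CPM in CON, 6.94 to 8.58 CPM in LPS and 15.7 to 22.3 CPM in SUR, a log2 fold change of 1.78 ± 0.22 against CON (adjusted p = 0.000908) and 1.37 against LPS (adjusted p = 0.000438).

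**Figure D2:**
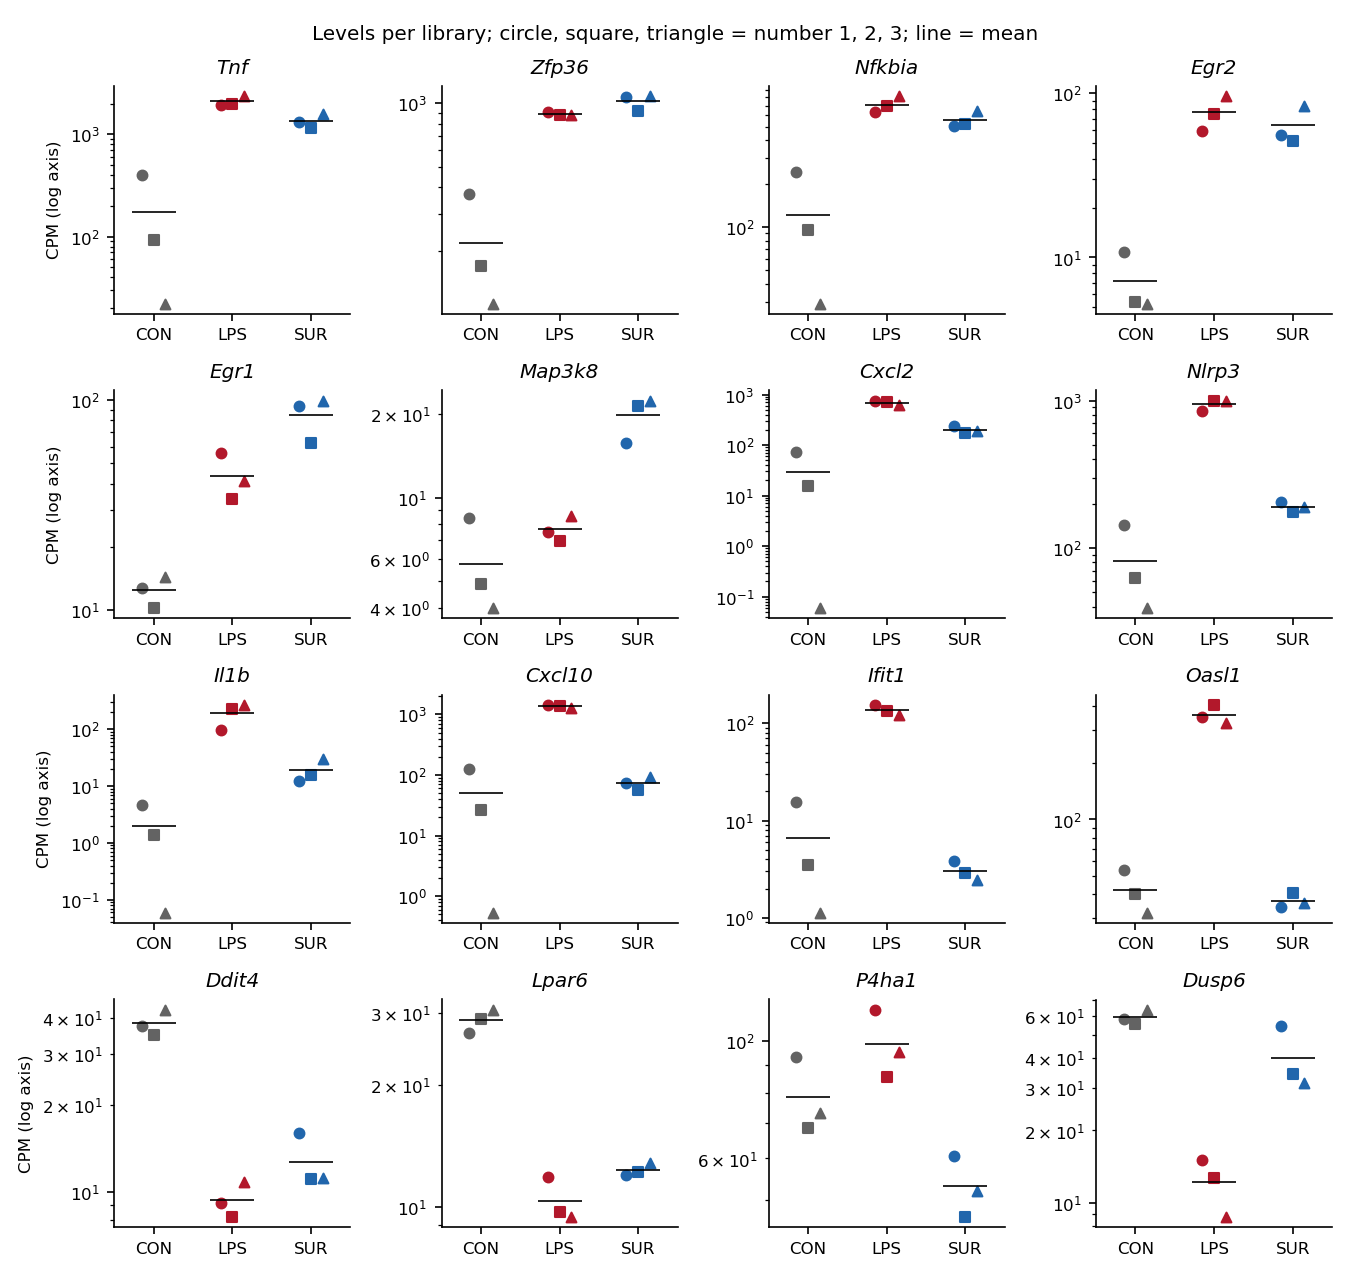
CPM on a log axis in each library for 16 genes, by group; circles, squares and triangles are the libraries numbered 1, 2 and 3 and the line is the mean. Zfp36, Egr1 and Map3k8 were highest in SUR, Nlrp3, Il1b and Cxcl2 were raised in SUR but far below LPS, Ifit1 and Oasl1 in SUR lay within the CON range, and CON 1 was the highest CON library for most of the induced genes.

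The 3 genes of this list that fell were Ier5l, Dusp6 and Etv5. Dusp6, the ERK-specific phosphatase, was at 58.4, 55.5 and 63.7 CPM in CON, 54.3, 34.4 and 31.6 CPM in SUR and 8.71 to 15.1 CPM in LPS; SUR differed from CON by a log2 fold change of -0.59 ± 0.14 (adjusted p = 0.023). SUR 1 lay just below the CON libraries and the other 2 well below. Etv5, an ETS factor of the ERK pathway, had a log2 fold change of -0.41 ± 0.06 (adjusted p = 0.00135), while its log2 fold change in LPS was 0.23.

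Of 27 genes of TLR4 signalling, 5 were higher in SUR (Map3k8, Cd14, Irak2, Traf3 and Myd88) and 0 lower, a share of 18.5% higher against the 7.37% of all genes, with a median log2 fold change of -0.004. Cd14, the LPS co-receptor, was at 157, 79.9 and 72.3 CPM in CON, 206 to 258 CPM in SUR and 760 to 824 CPM in LPS; the log2 fold change of SUR was 1.20 ± 0.20 (adjusted p = 0.00471). The receptor gene Tlr4 itself was at 56.0 to 75.7 CPM in CON and 56.8 to 72.3 CPM in SUR, a log2 fold change of -0.004 ± 0.06 (adjusted p = 0.977). The count was 3 without CON 2, CON 3, SUR 2 or SUR 3, and 1 without the block.

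As a list, interferon-stimulated genes in SUR lay close to medium. Of 41 tested, 4 were higher in SUR, 1 was lower and 36 were not called, with a median log2 fold change of -0.008 beside 1.40 for LPS. The 4 higher genes are a share of 9.76% against the 7.37% of all genes. Genes were picked from those not called after their values were seen to show the level. Ifit1, an RNA-binding antiviral effector, was at 15.5, 3.47 and 1.13 CPM in CON, 3.81, 2.90 and 2.46 CPM in SUR and 121 to 153 CPM in LPS. Isg15, a ubiquitin-like modifier, was at 10.3, 3.65 and 1.13 CPM in CON and 4.26 to 4.61 CPM in SUR, against 69.5 to 80.4 CPM in LPS. In both genes the SUR libraries lay within the CON range; the log2 fold changes were -1.10 ± 0.57 (adjusted p = 0.242) and -0.15 ± 0.44 (adjusted p = 0.863), and without CON 1 they were 0.31 and 0.85, still not called.

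Irf1 had the largest called rise in this list; it encodes a transcription factor that NF-kappaB induces. It was at 59.3, 37.4 and 23.3 CPM in CON, 132, 168 and 228 CPM in SUR and 131, 154 and 189 CPM in LPS. SUR and LPS overlapped, with a log2 difference of 0.15 (adjusted p = 0.662), and SUR exceeded CON by 2.11 ± 0.29 (adjusted p = 0.00135), also called without the block (adjusted p = 0.0393). Slfn2, which supports quiescence of immune cells, rose by 1.39 ± 0.29 (adjusted p = 0.0127; 2.02 without CON 1), and Gbp7 and Usp18 rose by 0.53 ± 0.09 and 0.35 ± 0.10. Gbp7 belongs to a family of near copies, which makes its count uncertain. Stat2, the interferon signal transducer, fell by 0.39 ± 0.06 (adjusted p = 0.0034), from 24.0 to 26.1 CPM to 18.4 to 19.5 CPM. Leaving out CON 1 gave 7 higher members, leaving out CON 2, SUR 2 or SUR 3 gave 2, and without the block there was 1.

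Pyroptosis genes, the subject of the study, were mostly not called. Of 30 genes of inflammasomes and pyroptosis, 4 were higher in SUR (Il1b, Il1a, Nlrp3 and Il1r1) and 0 lower, a share of 13.3% higher against the 7.37% of all genes, with a median log2 fold change of 0.05 beside 0.05 for LPS. Il1b and Il1a were counted among the cytokines too. Nlrp3, the inflammasome sensor, was at 143, 62.9 and 39.1 CPM in CON, 205, 177 and 189 CPM in SUR and 848, 995 and 988 CPM in LPS. SUR lay above all 3 CON libraries, by a log2 fold change of 1.33 ± 0.29 (adjusted p = 0.0174; 1.92 without CON 1), and below LPS by a log2 difference of -2.34 (adjusted p = 9.19e-05). Casp1, the protease that the inflammasome activates, was at 48.9, 59.8 and 54.4 CPM in CON and 46.8, 59.4 and 56.6 CPM in SUR, a log2 fold change of -0.003 ± 0.04. Gsdmd, which encodes the pore-forming gasdermin D, was at 47.5 to 62.3 CPM in CON and 43.6 to 59.1 CPM in SUR (log2 fold change -0.06 ± 0.04, adjusted p = 0.422). Il18 was at 2.51 to 4.02 CPM in CON and 2.92 to 3.43 CPM in SUR (-0.15 ± 0.16, adjusted p = 0.59). The count of 4 fell to 2 without CON 2 or CON 3, to 1 without SUR 2 and to 0 without SUR 3 or the block. RNA levels do not show whether these proteins were cleaved.

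**Figure D3:**
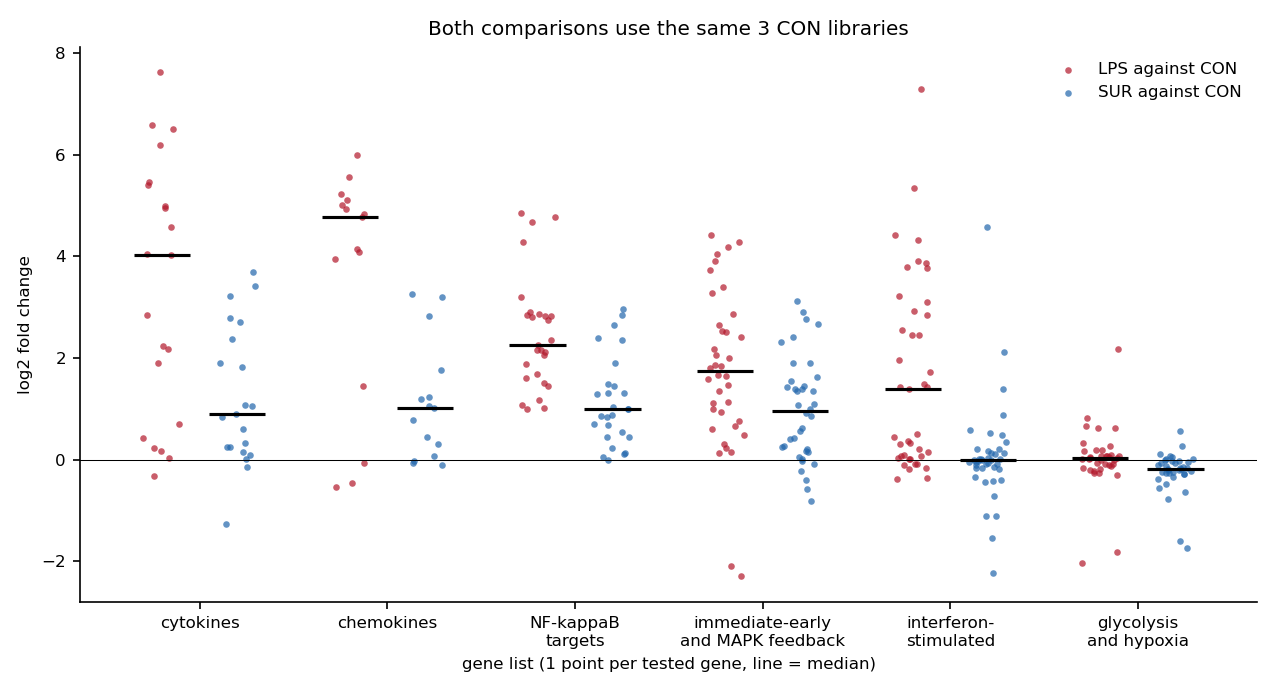
Log2 fold changes of the tested members of 6 gene lists in LPS against CON (red) and SUR against CON (blue), with the median as a line; both comparisons use the same 3 CON libraries. In SUR the medians are 0.89 for cytokines, 1.02 for chemokines, 0.99 for NF-kappaB targets, 0.95 for immediate-early genes, -0.008 for interferon-stimulated genes and -0.18 for glycolysis and hypoxia genes.

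Genes of apoptosis and of the p53 response were higher in smaller steps. Of 33 tested, 16 were higher in SUR (48.5%, against 7.37% of all genes) and 1 lower (3.03%, against 4.18%). The median log2 fold change was 0.24 beside 0.11 for LPS, in which some members fell, such as Bmf (-2.04) and Sesn1 (-1.17). Leaving out any 1 library gave 11 to 17 higher. Without the block 3 were called. Both survival and death genes were among them. Mcl1, which protects macrophages from apoptosis, rose by 0.60 ± 0.07 (adjusted p = 0.000543), from 751 to 942 CPM in CON to 1246 to 1346 CPM in SUR. Gadd45a, a stress sensor, rose by 2.04 ± 0.32 (adjusted p = 0.00278; 2.88 without CON 1), from 9.46, 3.90 and 2.20 CPM to 17.99 to 25.6 CPM. Fas, the death receptor, and Pmaip1, which encodes the BH3-only protein NOXA, rose by 1.16 ± 0.28 and 1.12 ± 0.22 (adjusted p = 0.0239 and 0.00842). In LPS the log2 fold changes of Mcl1, Gadd45a, Fas and Pmaip1 were 1.39, 4.07, 2.99 and 2.24. SUR was called lower than LPS for each of these genes. Casp9, the initiator caspase of the mitochondrial pathway, fell by 0.18 ± 0.04 (adjusted p = 0.023) and was not called without CON 1 (adjusted p = 0.0786).

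Antigen presentation and co-stimulation genes included 6 higher and 1 lower of 21, a higher share than the 7.37% of all genes; leaving out any 1 library gave 4 to 7 higher, and without the block there was 1. Cd83, an activation marker, rose by 2.15 ± 0.38 (adjusted p = 0.00579) from at most 0.731 CPM in CON to 1.44 to 2.92 CPM in SUR. Cd274 (PD-L1), the inhibitory ligand, was at 19.4, 17.2 and 10.7 CPM in CON and 32.8, 38.0 and 36.3 CPM in SUR, a log2 fold change of 1.17 ± 0.21 (adjusted p = 0.00562). Icosl, a co-stimulatory ligand, rose by 1.16 ± 0.14 (adjusted p = 0.000771). Cd40, whose product is a co-stimulatory receptor, had a log2 fold change of 0.54 ± 0.22 and was not called (adjusted p = 0.133) except without CON 1 (adjusted p = 0.00125).

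Kruppel-like factors, zinc finger regulators of macrophage quiescence and activation, were higher in 7 of 11 (63.6%, against 7.37% of all genes). Their median log2 fold change was 0.31 beside 0.20 for LPS. Klf6 rose by 1.07 ± 0.11 (adjusted p = 0.000466). Klf2, known to restrain NF-kappaB, was at 33.4 to 41.0 CPM in CON, 36.2 to 46.4 CPM in LPS and 58.4 to 65.2 CPM in SUR, a log2 fold change of 0.76 ± 0.10 (adjusted p = 0.00104). Klf3, Klf13 and Klf9 were higher than CON by 0.31, 0.29 and 0.24, whereas their log2 fold changes in LPS were -0.34, -0.29 and -0.46. The count was 4 without CON 3, SUR 1 or SUR 2, 3 without SUR 3 and 2 without the block. Targets of FoxO and MondoA, factors that respond to nutrients, were higher in 10 of 25 (40.0%) and lower in 2 (8.0%, against 4.18% of all genes). Their median was 0.15 beside -0.41 for LPS. Among them Foxo3 and Sesn1 were higher by 0.22 ± 0.05 and 0.25 ± 0.05 (adjusted p = 0.0169 and 0.00967). The largest rise in this list was that of Gadd45a (2.04) and the largest fall that of Ddit4 (-1.59). Gadd45a and Sesn1 also belong to the apoptosis list, and Ddit4 to the glycolysis and hypoxia list. The count of higher FoxO and MondoA targets was 6 without CON 2, 3 without SUR 2, 4 without SUR 3 and 0 without the block.

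Among abundant genes, the largest falls were those of Ddit4 and Lpar6. Ddit4 (chr10:59949675-59951770), also called REDD1, restrains mTORC1 and is induced by hypoxia and glucocorticoids. It was at 37.4, 34.8 and 42.6 CPM in CON, 15.9, 11.1 and 11.1 CPM in SUR and 9.13, 8.17 and 10.8 CPM in LPS, with no overlap between CON and SUR. The log2 fold change was -1.59 ± 0.11, 3.01-fold lower (adjusted p = 5.54e-05), and it was -1.71 without CON 1 and called without the block (adjusted p = 0.0117). Lpar6 (chr14:73237891-73240358), a receptor for lysophosphatidic acid, was at 26.7, 29.0 and 30.5 CPM in CON and 11.99, 12.2 and 12.8 CPM in SUR, a log2 fold change of -1.22 ± 0.09 (adjusted p = 6.41e-05). The libraries of each group lay close together for both genes, and LPS held 9.44 to 11.9 CPM of Lpar6.

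The other 13 of the 15 largest falls among abundant genes were smaller, from -0.79 for Rgs2 to -0.41 for Jmjd6, and in 13 of the 15 the SUR libraries all lay below the CON libraries (6.67% of all genes did). Choosing called genes favours this: the groups did not overlap in 239 of the 471 genes called lower. None of the 15 became more than 1.5 times larger in fold without CON 1. Rgs2, a regulator of G protein signalling, was at 86.1, 102 and 119 CPM in CON and 79.1, 55.6 and 47.7 CPM in SUR (-0.79 ± 0.21, adjusted p = 0.036). Gpr183, the oxysterol receptor that guides immune cell migration, fell by 0.48 ± 0.08 (adjusted p = 0.00437), with SUR at 25.7 to 33.7 CPM between CON at 37.6 to 42.5 CPM and LPS at 13.99 to 16.4 CPM. Id2, which inhibits basic helix-loop-helix factors, was called lower than CON (-0.47 ± 0.09, adjusted p = 0.0101) with overlapping groups and had a log2 fold change of 0.44 in LPS. Its relative Id1, below the abundance limit, fell by 2.38 ± 0.29 (adjusted p = 0.000771), from 2.98 to 4.05 CPM in CON to 0.351 to 0.828 CPM in SUR and 0.477 to 0.924 CPM in LPS. Without the block, of the 15 only Ddit4 and Lpar6 were called.

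Glycolysis and hypoxia-response genes were the list with the most falls. Of 37 tested, 20 were lower in SUR and 2 higher, where 4.18% of all genes were lower, with a median log2 fold change of -0.18 beside 0.03 for LPS. The called falls ranged from -0.15 to -1.73, in 13 of the 20 the groups did not overlap, and all 20 were also called without CON 1 and with upper-quartile scaling. On the authors' FPKM 19 of them were called, and leaving out any 1 library gave 15 to 20 lower. Without the block 1 was called, Ddit4. Genes whose libraries lay close together within each group were then not called either, such as Gapdh and Ldha (adjusted p = 0.205 and 0.149).

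Several enzymes of the pathway were lower by small amounts. Gapdh was at 3297, 3362 and 3295 CPM in CON and at 2906, 2903 and 3011 CPM in SUR, a log2 fold change of -0.17 ± 0.02 (adjusted p = 0.00103). Ldha, which makes lactate, was at 1139, 1093 and 1098 CPM in CON and at 943, 967 and 961 CPM in SUR (-0.21 ± 0.03, adjusted p = 0.00236). Aldoa, Tpi1, Pgam1, Eno1 and Pkm, which catalyse other steps, had log2 fold changes of -0.18, -0.25, -0.27, -0.20 and -0.15, all called, whereas Pgk1, Pfkp, Pfkm, Hk3, Aldoc and Eno2 were not called. In LPS these 7 called enzymes had log2 fold changes between -0.09 and 0.08. Pfkl, Hk2, Hk1 and Gpi1 were also called lower in SUR, by log2 fold changes of -0.38, -0.25, -0.17 and -0.17. Their log2 fold changes in LPS were 0.28, 0.20, -0.001 and -0.08, so LPS raised Pfkl and Hk2.

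Genes known as targets of the hypoxia-inducible factors differed among themselves. Ero1l, Ndrg1, Bnip3l, Pdk1, Car12, Pfkfb3 and Pfkfb4 were not called, with log2 fold changes between -0.08 and 0.11, and P4ha2 was not called either (-0.64, adjusted p = 0.28). P4ha1 (chr10:59323197-59373304), a collagen prolyl hydroxylase, was at 93.3, 68.4 and 73.3 CPM in CON, 60.8, 46.5 and 52.1 CPM in SUR and 115, 85.8 and 95.5 CPM in LPS. Within each number SUR was the lowest and LPS the highest, with a log2 fold change of -0.56 ± 0.04 against CON (adjusted p = 5.9e-05) and -0.89 against LPS (adjusted p = 8.13e-08). Slc2a1 (GLUT1), the main glucose transporter, had a log2 fold change against CON of -0.35 ± 0.04 (adjusted p = 0.000858), although LPS raised it, with a log2 fold change of 0.81. Bnip3, a mitophagy receptor, had a log2 fold change of -0.48 ± 0.06 (adjusted p = 0.000986), Egln3, an oxygen sensor, -0.78 ± 0.12 (adjusted p = 0.00238), and Ankrd37 -1.73 ± 0.18 (adjusted p = 0.000466). Bnip3 and Egln3 were higher in the libraries numbered 1 of every group, and their groups overlapped. Hif1a itself was at 108 to 129 CPM in CON and 111 to 135 CPM in SUR, a log2 fold change of 0.08 ± 0.06 (adjusted p = 0.459). The 2 higher members were the glucose transporters Slc2a6 and Slc2a3 (0.57 ± 0.11 and 0.26 ± 0.04).

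**Figure D4:**
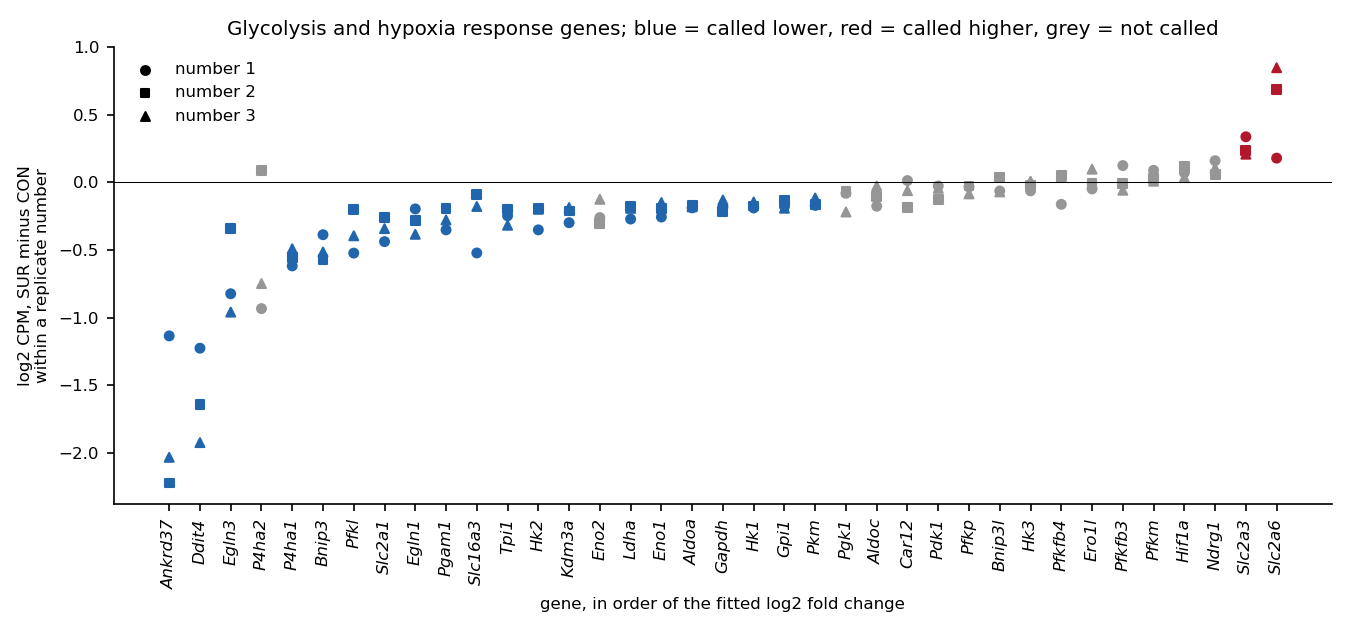
Log2 CPM difference of SUR from CON within each replicate number (vertical axis) for the 37 glycolysis and hypoxia genes, ordered by the fitted log2 fold change (horizontal axis). The 20 genes called lower are blue, and all of their points lie below 0; the 2 called higher are red.

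Other lists of lowered genes were less stable. Nuclear genes of oxidative phosphorylation were lower in 7 of 42 (16.7%, against 4.18% of all genes) and higher in 0, with a median log2 fold change of -0.10, and the called members, such as the complex I subunits Ndufb10 and Ndufs7 (-0.26 and -0.25), changed little. That count was 14 without CON 1, 4 without LPS 3, 2 without SUR 1, 1 without SUR 2, 3 without SUR 3 and 0 without the block. Lysosomal genes were lower in 7 of 47 (14.9%), among them Atp6v0d2 and Ctsd (-0.22 and -0.15). Their count was 4 without LPS 3, 1 without CON 3, SUR 1, SUR 2 or SUR 3, and 0 without the block.

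Several lists had few or no called members, beside 7.37% higher and 4.18% lower of all genes. Cell cycle genes had 1 higher of 42 for G1/S and 2 lower of 42 for G2/M, ribosome biogenesis genes 1 higher and 2 lower of 58, and tRNA synthetases 0 in either direction of 24 (edgeR quasi-likelihood, adjusted over all genes). Purinergic receptors and ectonucleotidases, which include the textbook targets of suramin, had 1 lower (Slc29a3, a nucleoside transporter) and 0 higher of 14. Macrophage identity markers had Cd14 higher and Cd68 and Tyrobp lower (-0.14 and -0.16) of 14 tested, shares of 7.14% and 14.3%.

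**Figure D5:**
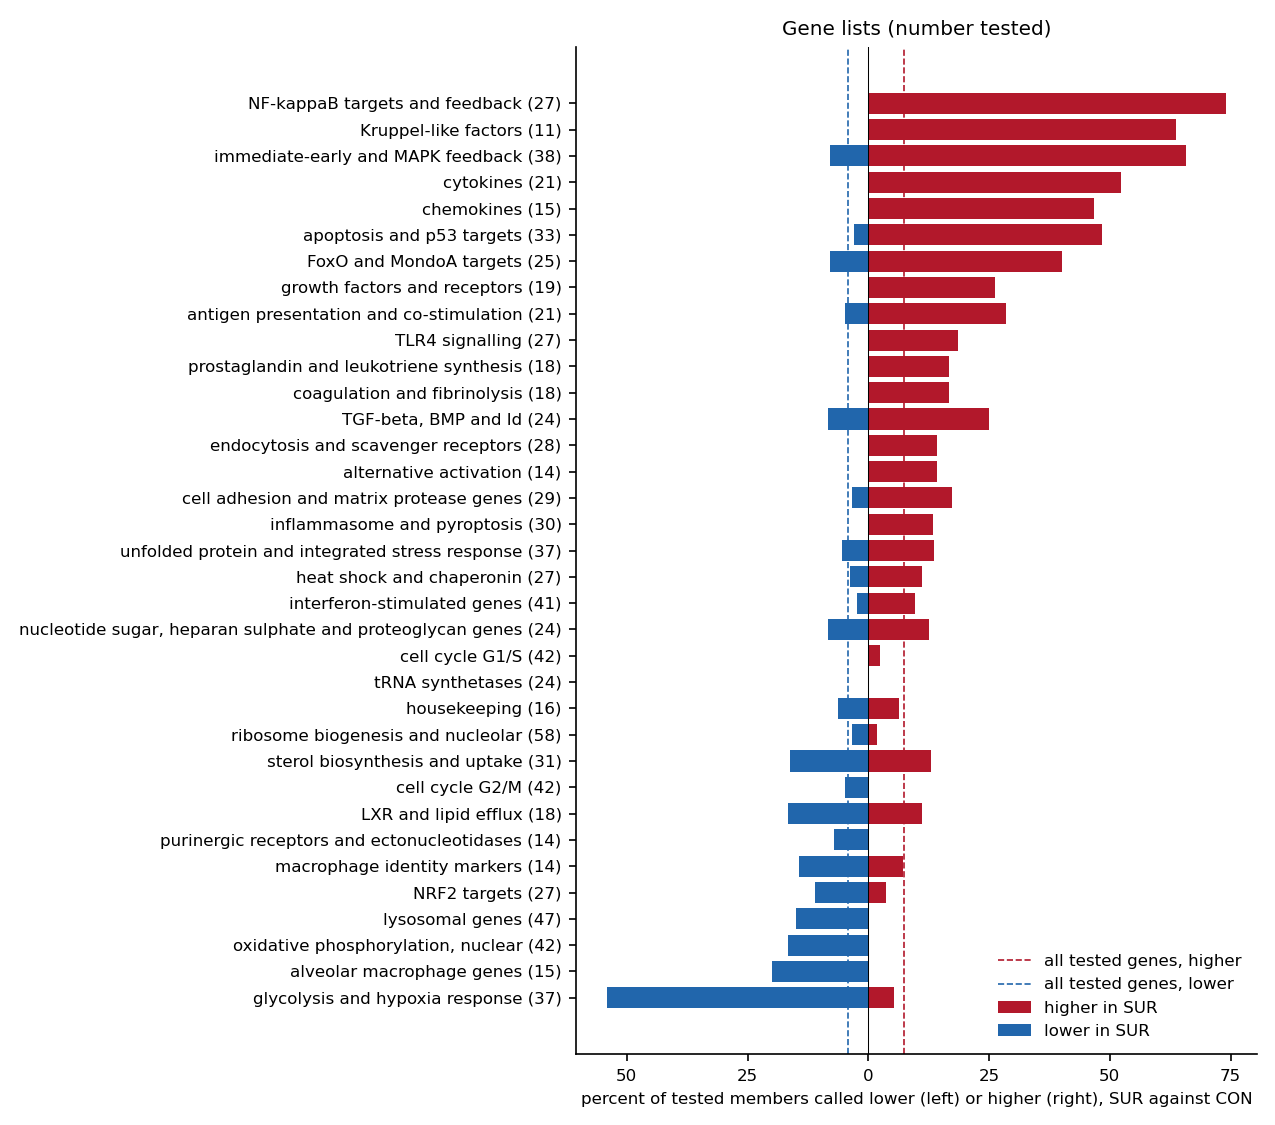
Percent of the tested members of each gene list called higher (red, right) or lower (blue, left) in SUR against CON, with the number tested in brackets and the shares over all tested genes, 7.37% and 4.18%, as dashed lines. NF-kappaB targets, Kruppel-like factors and immediate-early genes extend furthest to the right and glycolysis and hypoxia genes furthest to the left.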

How the data were processed

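The series has 9 libraries; CON and SUR are compared here, with LPS beside them. The deposited table of the whole series holds, per the file headers, read counts per gene, FPKM, TPM (not used) and, for the authors' comparisons, log2 fold changes with p-values and q-values. The deposited counts are estimated counts that need not be whole (93.36% of values are). Reads were aligned with HISAT2 2.0.4 to GRCm38 (mm10), per the submitters' processing notes; which counter, annotation and strand setting followed is not given in the sources used here, so overlapping genes and near copies are uncertain.

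Counts were rounded and tested in edgeR 4.0.16 (quasi-likelihood, TMM scaling, filterByExpr, Benjamini-Hochberg over 11281 of 14771 genes) on all 9 libraries, with group and replicate number as terms. CPM are TMM-scaled. The numbers were taken to pair libraries because deviations from the group means of same-numbered libraries correlated at 0.435 to 0.801 over 11281 genes, and all 9 libraries correlated best with their own number. Differently numbered libraries correlated at -0.643 to 0.437, so the ranges overlap slightly. Number 1 correlated negatively with numbers 2 and 3, which were told apart only narrowly. For example, CON 3 correlated at 0.447 with SUR 3 and at 0.421 with SUR 2. The model was run on counts simulated from its own fit, which cannot show whether the real counts follow it. Alternatives were no block, leaving out libraries, upper-quartile scaling, DESeq2 1.42.0, limma 3.58.1 (voom, and log2 of the authors' FPKM plus 1 or 0.1) and no filter.

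Named genes are the 15 largest called rises and falls whose mean log2 CPM reached 4, with the same sign in all 3 numbers, without predicted genes, up to 4 called members per list, and Nlrp3, Casp1, Gsdmd, Il1b, Il18 and Tnf; other genes were picked after their values were seen. The comparison, 39 gene lists and rules were chosen with earlier results of these data known. The lists share genes, so their counts are not separate from each other. Btg2 and Gadd45b, for example, are in both the immediate-early and the apoptosis lists. Gene coordinates and promoters are from RefSeq (GRCm38.p6; 11254 of the tested genes matched by gene identifier).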

Additional observations from a re-analysis of the deposited data

How the results depend on the processing

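Genes higher and lower in SUR than in CON numbered 831 and 471. Without the replicate block they numbered 44 and 4 (24 and 3 at 2-fold or more), and the pairing by number therefore sets how many genes pass. The 6 libraries alone gave 257 lower, DESeq2 203 lower, FPKM plus 1 535 higher and 250 lower (71 and 6 at 2-fold), FPKM plus 0.1 517 and 245, and unfiltered FPKM 287 and 132 (39 and 5). Leaving out 1 library gave 290 to 915 higher, 86 to 475 lower, 60 to 158 higher and 5 to 17 lower at 2-fold. Leaving out number 1 in all groups gave 871 and 395. Apart from the block, the cause of these shifts was not tested. Upper-quartile scaling moved lower calls from 471 to 564. The authors' deposited table calls 158 higher and 14 lower at q below 0.05. For the 127 named genes, 1835 values under alternatives kept their side of the threshold, 576 fell below it and none of the called genes changed sign. Casp1, not called, lay near 0 and changed sign (-0.003, and 0.004 without CON 1). Unadjusted p was below 0.05 for 3132 genes. Depth limits genes of few counts, such as Csf3 and Cxcl1. List counts without single libraries other than CON 1 were chosen after seeing the data.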

Other observations

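Further activation genes were higher in SUR, most of them at low abundance. Cd69, a surface marker of leukocyte activation, was at 2.51, 0.670 and 0.357 CPM in CON, 7.67, 6.67 and 11.1 CPM in LPS and 12.6, 10.3 and 12.6 CPM in SUR, with a log2 fold change of 3.31 ± 0.34 (adjusted p = 0.000453; 4.52 without CON 1). Il10, the anti-inflammatory cytokine, was at 0.119 to 0.234 CPM in CON and 0.710 to 2.19 CPM in SUR, and was called higher (adjusted p = 0.00437). Prdm1, which encodes the repressor BLIMP1, rose by 2.25 ± 0.22 (adjusted p = 0.000294), from 1.58 to 2.01 CPM in CON to 5.07 to 11.6 CPM in SUR. Tlr2, a receptor for bacterial lipoproteins, rose by 1.89 ± 0.36 (adjusted p = 0.00778; 2.56 without CON 1), from 203, 93.1 and 53.8 CPM to 316 to 484 CPM. These genes were picked after their values were seen.

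Of 37 genes of the unfolded protein and integrated stress response, 5 were higher in SUR, 2 were lower and 30 were not called, shares of 13.5% and 5.41% against 7.37% and 4.18% of all genes. The higher members numbered 8 without CON 1, 3 without SUR 2 or SUR 3 and 0 without the block. Ppp1r15a (GADD34), which restores translation after stress, rose by 1.78 ± 0.45 (adjusted p = 0.0307; 2.64 without CON 1), from 170, 50.3 and 20.1 CPM in CON to 183 to 254 CPM in SUR. The heat shock gene Hspa1a, uncertain because of its near copy Hspa1b, rose by 1.46 ± 0.24 (adjusted p = 0.00408).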
